A study of Mus musculus with 12 samples.

Results

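The 33 genes described here encode the sensors, transcription factors, chaperones, degradation factors and stress effectors of the unfolded protein response in mouse liver. They were chosen by name, as known components and targets of that response, and all 33 were rows among the 23284 genes of the deposited table. Each was placed in 1 group by its best known role, although the arms share targets in life: 6 transducers, 11 genes read mainly for ATF6, 8 read mainly for XBP1, 6 read mainly for ATF4, and 2 genes of the calnexin cycle with no arm. Every mouse lacked Apoa1 and Apoe, the genes of apolipoprotein A-I, on which high-density lipoprotein is built, and of apolipoprotein E, a ligand for lipoprotein uptake. The groups were double knockout mice (DKO, Apoa1-/- Apoe-/-) on chow, the normal laboratory diet (4 libraries), DKO mice on Western diet, a high-fat diet (3), and double knockout mice with a human APOA1 transgene (DKO/hA1) on chow (2) and on Western diet (3). Each diet was given for 22 weeks. The labels used here give neither the age and sex of the mice nor the promoter of the transgene, and no mouse with intact Apoa1 and Apoe is part of the series, so every comparison is between animals that share the double deletion. The labels do not say that each library is a separate animal, and the p-values measure only the spread between these samples, which may be technical.

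The unfolded protein response adjusts the folding capacity of the endoplasmic reticulum (ER) to its load of secretory protein, which is heavy in hepatocytes. IRE1 (gene Ern1) splices Xbp1 mRNA, ATF6 is cut in the Golgi to free its transcription factor domain, and PERK (gene Eif2ak3) phosphorylates eIF2α, which slows translation while ATF4 protein is made. ATF6 and spliced XBP1 drive chaperones and ER-associated degradation, and ATF4, which other kinases of eIF2α also induce, drives amino acid supply and a stress programme with Ddit3 and Atf3. Splicing, cleavage and translation are not seen in a gene-level value, so the arms are described here only through the mRNA of their targets.

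Expression was deposited as FPKM, fragments scaled to transcript length and to the mapped total, a scale on which genes can be compared with each other. FPKM summed to 379689 to 578927 per library and read depth is not used here. All 10 hepatocyte markers were detected in each group, with summed FPKM of 9223 to 14740 per library. Apoa1 was listed at 30.4 to 77.4 FPKM in the DKO and at 122 to 239.8 FPKM in the DKO/hA1 libraries, and Apoe at 12.9 to 89.8 FPKM across all 12, so that neither deletion reads as 0 in the table. A change in this bulk tissue may come from fewer cells of a type or from less RNA per cell, which cannot be told apart. Fold changes below are from a limma model of the 4 groups on log2(FPKM + 1), with the SE after ±, and understate the change of genes near 1 FPKM. Group means are followed by the SD.

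The transcription factors of the response act through short promoter elements, and a few promoters are shown because the members are sorted by those factors. RefSeq promoter sequences (GRCm38.p6) were matched for 29 of the 33 members, with no entry for Hyou1, Manf, Derl1 and Atf6. The 250 bases before each start site were searched on both strands. The ER stress element ERSE (CCAAT, 9 bases of any kind, then CCACG), to which ATF6 binds with NF-Y, stood in 9 of the 29 (Hspa5, Hsp90b1, Calr, Pdia6, Creld2, Dnajc3, Syvn1, Derl3 and Canx) and in 0.113% of all 32851 promoters. ERSE-II (ATTGG, 1 base, then CCACG) stood in Herpud1 and in 0.0304% of promoters. The ATF4 composite element CARE (TGATGCAA) stood in Atf3, Chac1 and Herpud1 and in 0.791% of promoters. The UPRE core (TGACGTGG) stood in no member and in 0.563% of promoters. In Herpud1, which holds 2 kinds of match, they do not overlap. Capitals mark the motif, which reads as its reverse complement where it lies on the opposite strand. Each line runs 5′ to 3′ on the strand of its gene.
Hspa5 ERSE, chr2:34772000-34772068, plus strand: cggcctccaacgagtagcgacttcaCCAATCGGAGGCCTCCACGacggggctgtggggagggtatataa
Hsp90b1 distal ERSE, chr10:86705613-86705681, minus strand: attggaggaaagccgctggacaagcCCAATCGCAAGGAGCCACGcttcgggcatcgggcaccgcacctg
Hsp90b1 proximal ERSE, opposite strand, chr10:86705508-86705576, minus strand: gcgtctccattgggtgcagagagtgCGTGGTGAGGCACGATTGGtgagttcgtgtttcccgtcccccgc
Syvn1 ERSE, chr19:6046507-6046575, plus strand: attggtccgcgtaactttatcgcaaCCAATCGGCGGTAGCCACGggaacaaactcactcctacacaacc
Herpud1 ERSE-II, chr8:94386352-94386412, plus strand: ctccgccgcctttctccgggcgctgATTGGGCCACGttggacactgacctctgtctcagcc
Herpud1 CARE, opposite strand, chr8:94386292-94386349, plus strand: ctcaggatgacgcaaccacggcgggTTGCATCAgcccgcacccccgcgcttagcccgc
Atf3 CARE, opposite strand, chr1:191183411-191183468, minus strand: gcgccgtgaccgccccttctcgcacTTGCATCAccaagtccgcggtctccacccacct
Chac1 CARE, opposite strand, chr2:119351024-119351081, plus strand: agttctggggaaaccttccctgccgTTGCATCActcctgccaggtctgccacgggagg
Hspa5, the main ER chaperone BiP, holds its match 46 bases before the start site, and Hsp90b1 (GRP94) holds matches at 193 and 88 bases. Herpud1, an ER membrane protein that helps degradation, is the member with both an ERSE-type and an ATF4-type match. A match here is a run of letters and was not tested as a binding site.

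The members spanned a wide range of levels. The lumenal chaperones and lectins were the most abundant: median FPKM over the 12 libraries was 372 for Calr (calreticulin), 307 for Hspa5, 299 for Hsp90b1 and 172 for Pdia3, the disulfide isomerase that works with the calnexin cycle. Herpud1 (152), the disulfide isomerase Pdia6 (120.2) and the transducers Xbp1 (112) and Creb3l3 (98.3) followed. At the other end stood genes of the ATF4 arm and a single degradation factor: Derl3 at 3.72, Atf3 at 2.51, Trib3 at 2.46 and Chac1 at 2.26 FPKM. The median within-group SD of log2 values was 0.53 for the ATF4 arm (6 genes), 0.39 for the ATF6 arm (11), 0.30 for the XBP1 arm (8) and 0.23 for the transducers (6), against 0.20 over all 11546 genes tested.

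All 33 members passed the level filter, and none passed an adjusted p of 0.05 in any of the 7 comparisons by limma. Over all genes tested, the share called was 0.113% for diet in DKO, 1.19% for diet in DKO/hA1, 0.0779% for the transgene on chow, 0.0% for the transgene on Western diet and 0.0173% for the diet by transgene interaction. It was 3.88% for diet averaged over genotypes and 0.0866% for the transgene averaged over diets. The members' directions are therefore given below as values with their intervals. The 4 single comparisons share libraries in pairs, since DKO chow is the reference of 2 of them and DKO/hA1 Western diet enters 2 others.

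**Figure D1:**
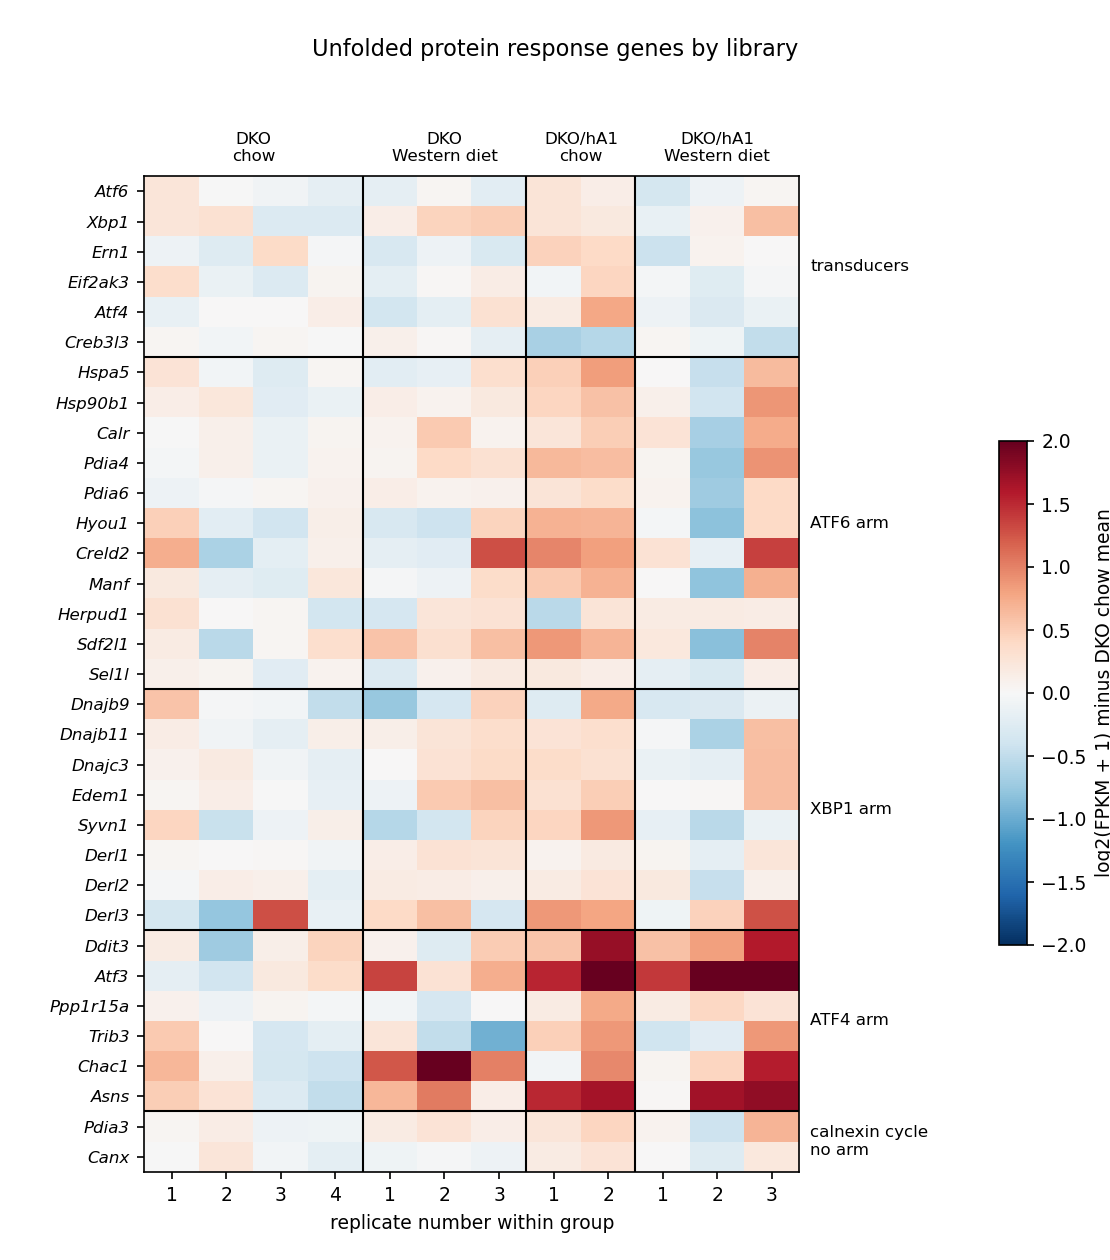
Heat map of log2(FPKM + 1) of the 33 members (rows, by role) in the 12 libraries (columns, by group and replicate number), each minus the mean of DKO chow, with colours ending at 2 in either direction. Both DKO/hA1 chow columns and DKO/hA1 Western diet replicate 3 are red over most of the chaperone rows, and DKO/hA1 Western diet replicate 2 is blue there.

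On chow, 31 of the 33 members stood higher with the transgene than without it, and Creb3l3 and Herpud1 stood lower. The median log2 fold change was 0.43, against 0.01 over all genes tested, and it was 0.61 for the ATF6 arm, 0.32 for the XBP1 arm, 0.91 for the ATF4 arm and 0.21 for the transducers. In 22 members both DKO/hA1 chow libraries lay above all 4 DKO chow libraries, where 11.4% of all genes did so, and in 1 member (Creb3l3) both lay below, where 10.5% did. An unadjusted p under 0.05 was reached by 7 members in the higher direction (4.04% of all genes) and 1 in the lower (3.41%). The members are not independent of one another, as shown further on, and the transgenic arm on chow rests on 2 libraries. In the submitters' sample descriptions both of these libraries and DKO chow replicate 3 carry the same number after the diet code. The labels do not say what that number means. Without DKO/hA1 chow replicate 2 the median was 0.27, and without replicate 1 it was 0.58, and the ATF4 arm median was 0.52 without replicate 2.

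Hspa5 gave 368, 278, 255 and 305 FPKM in the 4 DKO chow libraries and 420.0 and 540.1 in the 2 DKO/hA1 chow libraries. The groups did not overlap, and the fitted log2 fold change was 0.66 ± 0.28 (95% interval 0.04 to 1.27, limma adjusted p = 0.62). Pdia4, a disulfide isomerase of the ER lumen, gave 74.6, 77.5, 69.7 and 78.3 FPKM without the transgene and 119 and 117 with it. The 2 transgenic values were close together and both stood well above the others, and the fold change of 0.63 ± 0.33 had a limma adjusted p of 0.72. The model takes 1 spread for all groups, and Pdia4 ran from 44.1 to 139.97 FPKM among the DKO/hA1 Western diet libraries. Hyou1, an ER chaperone of the large heat shock type, gave 54.0, 31.4, 29.6 and 41.0 FPKM without and 62.3 and 61.9 with the transgene. Its lowest transgenic value exceeded the highest DKO value by a small margin, and the fold change was 0.68 ± 0.34 (limma adjusted p = 0.71).

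Of the other 8 ATF6 arm genes, 7 had no overlap on chow. Higher in both transgenic libraries were Hsp90b1 (0.51 ± 0.28), Calr (0.36 ± 0.31), Pdia6 (0.31 ± 0.23), Creld2 (0.90 ± 0.52), Manf (0.61 ± 0.33), Sdf2l1 (0.77 ± 0.40) and Sel1l (0.16 ± 0.16), each a log2 fold change with its SE. Manf is a secreted factor retained in the ER by BiP, Sdf2l1 assists BiP, and Sel1l is the adaptor of the degradation complex. The exception was Herpud1, with 172, 133, 143 and 105 FPKM in DKO chow and 94.5 and 166 in DKO/hA1 chow (-0.14 ± 0.25). Its 2 transgenic libraries lay at the low and the high end of the DKO range.

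Of the XBP1 arm, 5 of 8 genes had no overlap on chow. These were Dnajb11 (0.30 ± 0.25) and Dnajc3 (0.34 ± 0.21), J-domain partners of BiP, Edem1 (0.40 ± 0.22), which hands misfolded glycoproteins to degradation, and Derl1 (0.13 ± 0.12) and Derl2 (0.22 ± 0.17), membrane proteins of the export channel. Syvn1, the ubiquitin ligase HRD1, gave 37.9, 18.99, 25.8 and 29.6 FPKM in DKO chow and 37.2 and 50.9 in DKO/hA1 chow. The lower transgenic value fell just inside the DKO range (0.64 ± 0.29, adjusted p = 0.67 in limma). Dnajb9 (0.25 ± 0.37) overlapped widely. Derl3 (0.82 ± 0.52) overlapped only through DKO chow replicate 3, at 7.52 FPKM. The remaining DKO chow libraries had 0.992, 1.72 and 2.09 FPKM, and the DKO/hA1 chow libraries had 5.30 and 4.99. Of the calnexin cycle, Pdia3 (0.33 ± 0.24) had no overlap and Canx (0.22 ± 0.15) did.

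**Figure D2:**
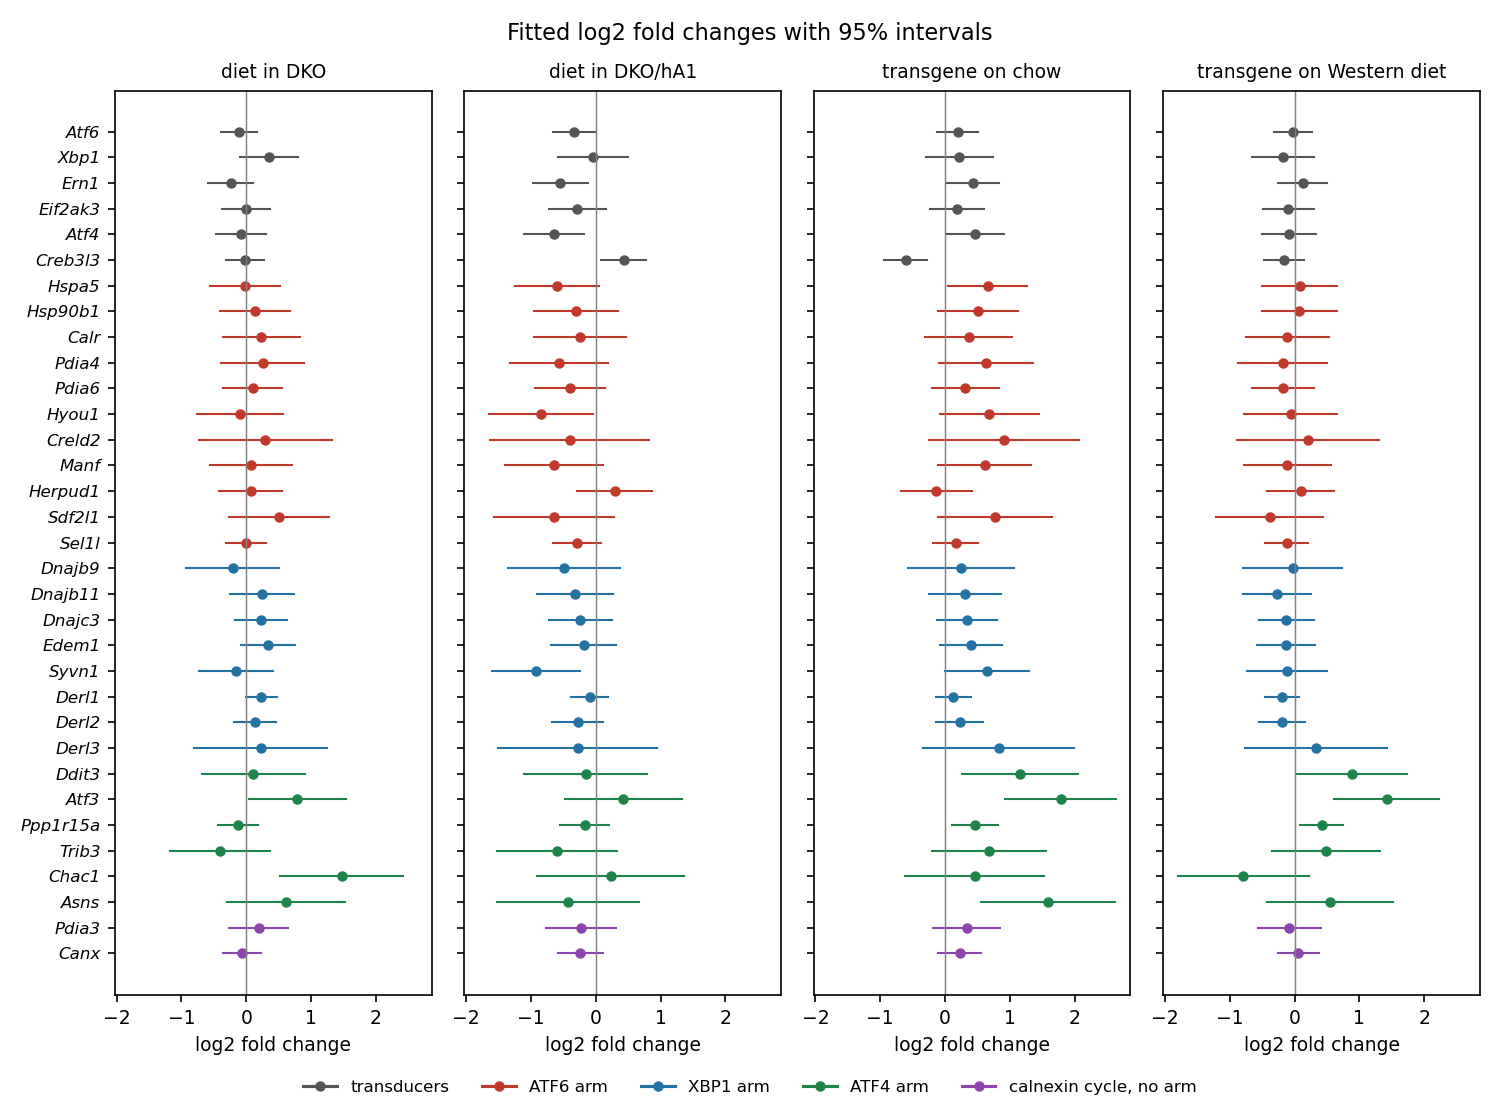
Fitted log2 fold changes (points) with 95% intervals (lines) of the 33 members in 4 comparisons, coloured by role. In the panel for the transgene on chow 31 of 33 points lie right of 0, and in the panel for diet in DKO/hA1 29 of 33 lie left of it.

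Among the transducers on chow, Creb3l3 ran against the rest. Creb3l3 encodes CREBH, an ER-bound factor of hepatocytes that is cut like ATF6 and controls triglyceride and iron genes. It gave 106, 94.7, 106 and 100.3 FPKM in DKO chow and 65.1 and 69.0 FPKM in DKO/hA1 chow. All 4 DKO values exceeded both transgenic ones (-0.61 ± 0.15, 95% interval -0.94 to -0.28, unadjusted p = 0.0019 and adjusted p = 0.32 in limma). Atf4 (0.47 ± 0.20) and Ern1 (0.43 ± 0.18) had no overlap in the other direction. For Ern1 the margin was very small before scaling, since 1 library of each genotype stood at 18.4 FPKM. Atf6 (0.20 ± 0.14), Xbp1 (0.22 ± 0.23) and Eif2ak3 (0.19 ± 0.19) overlapped. Xbp1 mRNA is counted here without regard to splicing.

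The ATF4 arm held the largest fold changes for the transgene. Asns, asparagine synthetase, gave 6.46, 5.14, 3.41 and 2.69 FPKM in DKO chow and 13.9 and 15.8 in DKO/hA1 chow. Both transgenic values stood well above the DKO range (1.59 ± 0.47, 95% interval 0.55 to 2.62, adjusted p = 0.39 in limma). Ddit3, which encodes CHOP, gave 8.98, 4.21, 8.68 and 10.9 FPKM without and 12.1 and 28.9 with the transgene. The 2 transgenic libraries differed from each other more than the nearer one did from DKO (1.16 ± 0.41, limma adjusted p = 0.51). Ppp1r15a (GADD34), which restores translation by dephosphorylating eIF2α, had 5.41 to 6.59 FPKM in DKO chow and 6.98 and 11.03 in DKO/hA1 chow (0.46 ± 0.16). Trib3 (0.67 ± 0.40), a pseudokinase that curbs ATF4, and Chac1 (0.45 ± 0.49), which degrades glutathione, overlapped.

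Atf3 was the member with the most regular difference by genotype. ATF3 is a stress-induced repressor of the same leucine zipper family. It gave 0.449, 0.238, 0.87 and 1.08 FPKM in DKO chow and 3.25, 1.00 and 1.77 in DKO Western diet libraries. With the transgene it gave 3.68 and 5.66 FPKM on chow and 3.37, 7.53 and 10.2 on Western diet. All 5 transgenic libraries lay above all 7 without the transgene, although DKO Western diet replicate 1 came close. Averaged over diets, the log2 fold change was 1.60 ± 0.27 (95% interval 1.01 to 2.19), a 3.03-fold difference on the FPKM + 1 scale. Its limma adjusted p was 0.075, short of the threshold, on an unadjusted p of 9.1e-05. In 2 of 23 settings it passed: 0.040 with totals made equal and 0.013 without DKO/hA1 Western diet replicate 1. By diet, the transgene's fold change was 1.78 ± 0.39 on chow and 1.42 ± 0.37 on Western diet.

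Averaged over diets, 29 of 33 members stood higher with the transgene, at a median of 0.14 against 0.01 for all genes. An unadjusted p under 0.05 was reached by 5 higher (4.3% of all genes) and 1 lower (3.65%). The 5 were Atf3, Asns (1.07 ± 0.32), Ddit3 (1.02 ± 0.28), Ppp1r15a (0.44 ± 0.11) and Ern1 (0.28 ± 0.13), so 4 of the 6 ATF4 arm genes were among them, and the 1 lower was Creb3l3 (-0.39 ± 0.10). After scaling, all 5 transgenic libraries stood above all 7 others for Atf3, Ddit3 and Ppp1r15a, where 0.268% of all genes did so. Medians by arm were 0.80 for ATF4, 0.22 for ATF6 and 0.11 for XBP1. With DKO/hA1 Western diet replicate 3 left out, the ATF6 and XBP1 medians were both 0.01 and that of all members was 0.04. With replicate 2 left out, the ATF6 median was 0.43. Whether the arms differ from one another was not tested.

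The early stress genes of the ATF4 arm can be set beside a wider list. A list of 12 immediate early genes, added after the data were seen, summed to 109.8 to 238 FPKM in DKO and 147 to 288 FPKM in DKO/hA1 libraries. All 11 of its tested genes had a positive fold change for the transgene averaged over diets (median 0.51), with none called and 3 under an unadjusted p of 0.05 (4.3% of all genes). The highest sum, 288 FPKM, belonged to DKO/hA1 Western diet replicate 1, where Atf3 was lowest among transgenic libraries. The part of these genes, which respond within minutes to many stimuli, in the ATF4 arm values was not tested.

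**Figure D3:**
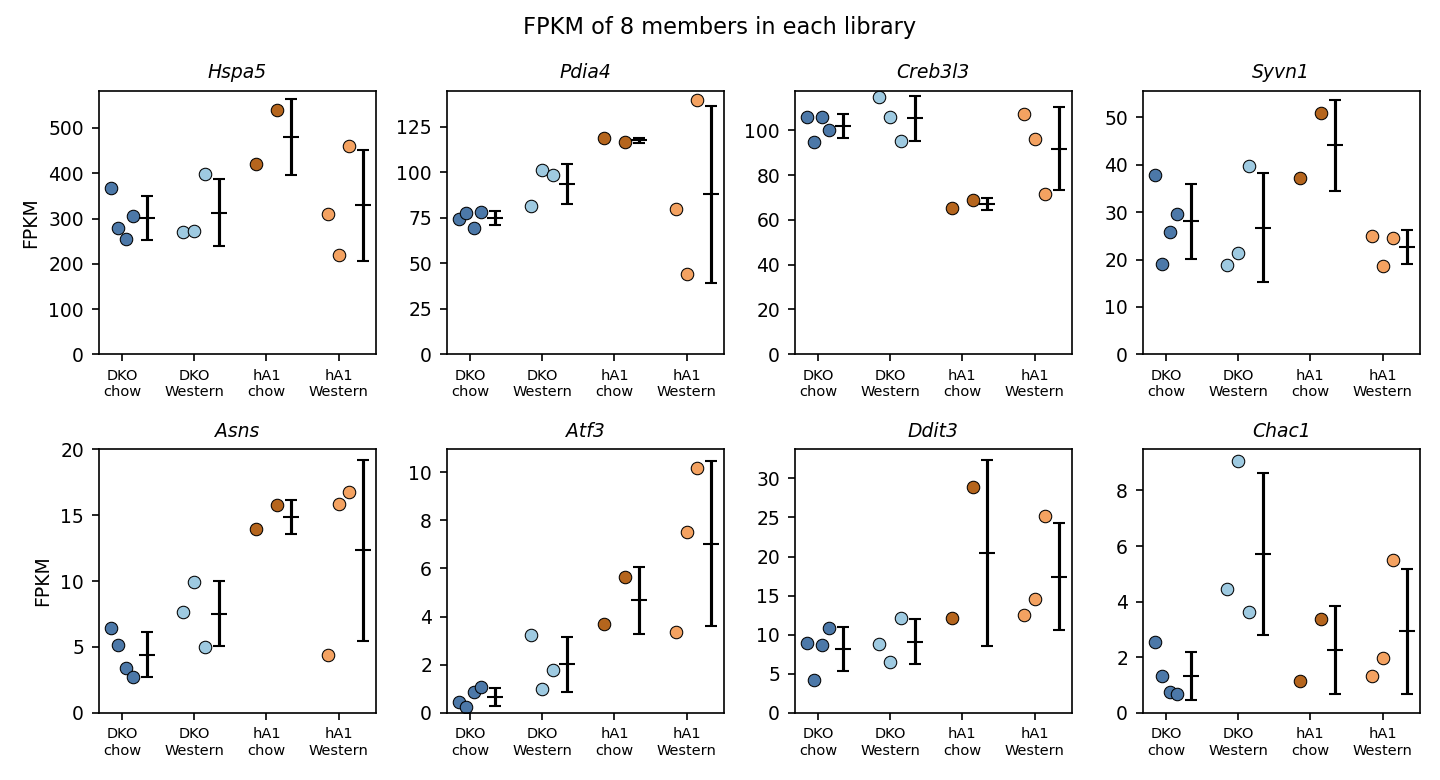
FPKM of 8 members in each library (points) with the group mean and SD (bars) for DKO and DKO/hA1 (hA1) on chow or Western diet. Atf3 is above 3.3 FPKM in all 5 transgenic libraries, Creb3l3 is lowest in DKO/hA1 chow, and Hspa5 and Pdia4 spread widely in DKO/hA1 Western diet.

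On Western diet, of 33 members 12 stood higher and 21 lower with the transgene, at a median of -0.09 against 0.01 for all genes. By arm the medians were -0.11 (ATF6), -0.12 (XBP1), 0.52 (ATF4) and -0.09 (transducers). For the ATF6 arm it became 0.275 without DKO/hA1 Western diet replicate 2, 0.03 without DKO Western diet replicate 3 and -0.34 without DKO/hA1 Western diet replicate 3. The XBP1 arm median was 0.01, -0.02 and -0.285 with the same libraries left out. For the ATF4 arm, leaving out DKO/hA1 Western diet replicate 3 gave 0.33 and leaving out replicate 1 gave 0.91. The 95% interval of a typical member reached 0.53 to either side on the log2 scale, so that a change of the size seen on chow could not be told from none. With totals made equal the median over members was 0.10, and the median over all genes then moved to 0.16. It was also 0.10 without DKO/hA1 Western diet replicate 2. Members with an unadjusted p under 0.05 numbered 3 higher (3.98% of all genes) and 0 lower (1.72%). The same 3 (Atf3, Ddit3 and Ppp1r15a) had no overlap between groups, where 5.84% of all genes lay higher without overlap.

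The DKO/hA1 Western diet libraries had the widest spread of ATF6 arm means of the 4 groups. The mean deviation of the 11 ATF6 arm genes from the DKO chow mean was 0.09 in replicate 1, -0.52 in replicate 2 and 0.66 in replicate 3. In the other groups it was -0.15 to 0.20 (DKO chow), -0.04 to 0.38 (DKO Western diet) and 0.43 and 0.56 (DKO/hA1 chow). Replicate 3 was the highest library of all 12 and replicate 2 the lowest. Hsp90b1 gave 293, 204 and 489 FPKM in the 3 replicates, Calr gave 415, 211 and 556, and Manf gave 40.9, 22.4 and 65.1. For each of these 3 genes replicate 2 was the lowest of all 12 libraries and replicate 3 at or near the top. Replicate 2 held the lowest value of 15 members in all.

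**Figure D4:**
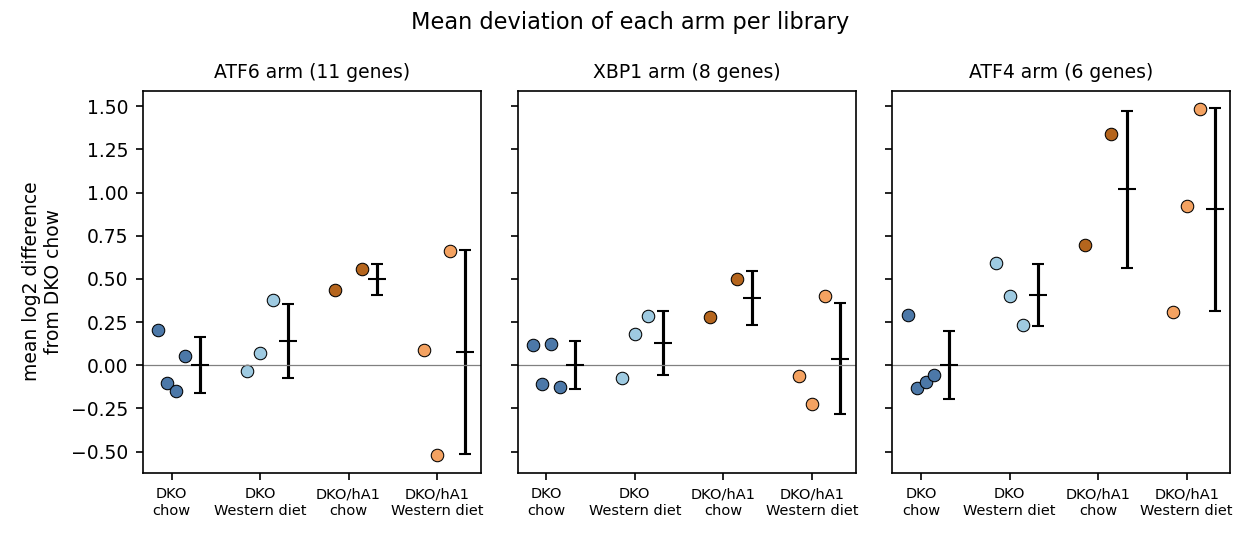
Mean log2 difference from DKO chow over the genes of the ATF6, XBP1 and ATF4 arms, 1 point per library, with the group mean and SD as bars. The 2 DKO/hA1 chow points lie above all DKO chow points in each panel, and the DKO/hA1 Western diet points span -0.52 to 0.66 in the ATF6 panel.

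Other gene lists also differed between these 3 libraries, several but not all of them mainly through replicate 3. From replicate 1 to 2 the ATF6 arm fell, while acute phase, macrophage, neutrophil and cholangiocyte sums rose. T and NK cell markers summed to 10.4, 5.61 and 6.54 FPKM in replicates 1 to 3. Endothelial markers summed to 75.7, 90.9 and 89.7 FPKM, so neither list peaked in replicate 3. Stellate cell markers summed to 116.1, 170.7 and 171.5 FPKM and pancreas markers to 17.5, 10.9 and 4.4 FPKM in the same order. The 15 acute phase genes summed to 13040, 15470 and 128600 FPKM in DKO/hA1 Western diet replicates 1, 2 and 3, and to 9519 to 18470 FPKM on chow. DKO Western diet replicates 2 and 3 were also high in them (149300 and 85650), with ATF6 arm deviations of 0.07 and 0.38. The macrophage and Kupffer cell markers (11 of 11 detected) summed to 1050.0, 1124 and 1742 FPKM in the same 3 replicates. Neutrophil markers (7 of 8 listed had a row, all detected in this group) summed to 16.4, 73.2 and 866 FPKM there. They summed to 94.2, 938 and 219.5 FPKM in DKO Western diet and to 12.3 to 29.0 FPKM on chow. Cholangiocyte markers (5 of 5) summed to 40.1, 42.5 and 157 FPKM there, to 38.8 to 123 FPKM in DKO Western diet and to 28.7 to 61.7 FPKM on chow. Plasma and B cell markers are of interest because such cells are rich in ER chaperones. Without Sdc1, which hepatocytes also express, they summed to 4.11, 2.95 and 8.86 FPKM there, to 18.5 and 33.3 in DKO/hA1 chow and to 4.72 to 26.5 in DKO chow. Tnfrsf17, a defining plasma cell marker, was listed at 0 in 11 of 12 libraries. Igj, also in this list, gave 11.98 and 23.2 FPKM in DKO/hA1 chow and 1.82 to 19.3 in DKO chow. Mzb1, another of the list, gave 1.47 and 4.93 FPKM in DKO/hA1 chow and 0.411 to 1.68 in DKO chow. Both genes had their highest value of all 12 libraries in DKO/hA1 chow replicate 2. In DKO/hA1 Western diet replicate 3, Igj was at 4.99 and Mzb1 at 1.04 FPKM. The part of any of these in the chaperone values was not tested.

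With Western diet in DKO/hA1 mice, 29 of 33 members stood lower and 4 higher, at a median of -0.29 against 0.00 for all genes. The arm medians were -0.40 (ATF6), -0.28 (XBP1), -0.16 (ATF4) and -0.31 (transducers). That of the ATF4 arm turned to 0.28 without DKO/hA1 chow replicate 2 and to 0.10 without DKO/hA1 Western diet replicate 1. An unadjusted p under 0.05 was reached by 4 lower (5.3% of all genes) and 1 higher (8.23%). Without overlap, 6 were lower (14.4% of all genes) and 1 higher (15.9%). The share of members lower without overlap was thus near that of all genes, and fewer members than that background were higher. Leaving out a library of the Western diet arm gave a median over all members of -0.55 (replicate 3) or -0.11 (replicate 2), and of -0.84 or -0.15 for the ATF6 arm and -0.52 or -0.09 for the XBP1 arm. The reference of this comparison is the pair of DKO/hA1 chow libraries described above.

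The 4 lower genes were Syvn1, Hyou1, Atf4 and Ern1. Syvn1 gave 37.2 and 50.9 FPKM on chow and 24.96, 18.6 and 24.5 FPKM on Western diet (-0.92 ± 0.31, 95% interval -1.60 to -0.23, limma adjusted p = 0.20). Hyou1 gave 37.8, 21.0 and 49.9 FPKM on Western diet against 62.3 and 61.9 on chow (-0.84 ± 0.36, limma adjusted p = 0.34). Atf4 gave 54.5 and 84.8 FPKM on chow and 46.1, 39.4 and 43.9 on Western diet (-0.64 ± 0.21, limma adjusted p = 0.18). In each of these genes the Western diet libraries all lay below the chow ones. Ern1 (-0.55 ± 0.19), Atf6 and Sel1l had no overlap either. Creb3l3 went the other way, from 65.1 and 69.0 to 107, 96.3 and 71.4 FPKM (0.43 ± 0.16, limma adjusted p = 0.25).

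With Western diet in DKO mice, 21 members stood higher and 12 lower, at a median of 0.11 against 0.00 for all genes. The median was -0.10 with totals made equal, a setting that moved the median of all genes to -0.19. Unadjusted p fell under 0.05 for 2 higher (7.37% of all genes) and 0 lower (4.37%), and 2 had no overlap in the higher direction (7.43%), which is close to the background. Hspa5 gave 269, 271 and 398 FPKM on Western diet, within or just above its chow range (-0.02 ± 0.25, 95% interval -0.56 to 0.52). Xbp1 gave 109, 134 and 142 FPKM against 116, 113, 80.4 and 78.3 on chow (0.36 ± 0.21), an overlap of 1 library.

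Chac1 was the member that differed most with diet in DKO livers. It gave 2.54, 1.34, 0.752 and 0.665 FPKM on chow and 4.45, 9.06 and 3.63 on Western diet. The groups did not overlap (1.47 ± 0.43, 95% interval 0.52 to 2.42, unadjusted p = 0.0058 and adjusted p = 0.25 in limma). In DKO/hA1 mice it gave 1.13 and 3.36 FPKM on chow and 1.33, 1.98 and 5.50 on Western diet, which overlap (0.23 ± 0.51). The difference between the diet effects was -1.24 ± 0.67 (95% interval -2.72 to 0.23, limma adjusted p = 0.96). Derl1 was the other member without overlap (31.97 to 35.5 against 39.1 to 43.1 FPKM, 0.23 ± 0.11), and Atf3 had a fold change of 0.79 ± 0.34 with overlap.

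Averaged over genotypes, diet left 25 members lower and 8 higher, at a median of -0.07, which was 0.02 without DKO/hA1 Western diet replicate 2. Unadjusted p fell under 0.05 for 4 lower (7.71% of all genes) and 2 higher (11.8%). The lower ones were Ern1 (-0.39 ± 0.13, limma adjusted p = 0.11), Atf4 (-0.36 ± 0.14), Syvn1 (-0.54 ± 0.20) and Atf6, and the higher ones were Chac1 (0.85 ± 0.33) and Atf3 (0.61 ± 0.27). The interaction of diet and transgene was negative for 31 members (median -0.44, all genes 0.01). None of the 33 reached an unadjusted p of 0.05, where 4.85% of all genes did, and the smallest adjusted p was 0.96. Its typical 95% interval reached 0.77 to either side on the log2 scale, and the median became -0.70 when DKO/hA1 Western diet replicate 3 was left out.

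The members varied together within groups. After subtracting group means, the mean of the ATF6 arm and the mean of the XBP1 arm had a Pearson r of 0.82 over the 12 libraries, against 0.39 for ATF6 with ATF4 and 0.51 for XBP1 with ATF4. Single ATF6 arm genes had a median r of 0.82 with the rest of their arm, highest for Manf (0.97) and Hspa5 (0.95), whereas all other genes had a median of 0.01 and 10th and 90th percentiles of -0.52 and 0.53. Dnajb11, sorted into the XBP1 arm, had an r of 0.98 with the ATF6 arm, and Pdia3, in no arm, had 0.84. Herpud1, the gene with an ERSE-II and a CARE match, had 0.14 with the ATF6 arm and 0.56 with the XBP1 arm. These are descriptions of 12 libraries that share group means, and the wide DKO/hA1 Western diet group weighs on them.

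The transducers were less uniform than the chaperones. With the ATF6 arm, r was 0.57 for Eif2ak3, 0.53 for Xbp1, 0.23 for Atf6, -0.19 for Ern1 and -0.68 for Creb3l3. The lowest Creb3l3 values, 65.1, 69.0 and 71.4 FPKM, came from the same 3 libraries (DKO/hA1 chow replicates 1 and 2 and DKO/hA1 Western diet replicate 3) that had the highest ATF6 arm means. The other 9 libraries had 94.7 to 115 FPKM. In the ATF4 arm, single genes had a median r of 0.57 with their own arm and 0.27 with the ATF6 arm. Atf4 mRNA had an r of 0.02 with the ATF4 arm.

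**Figure D5:**
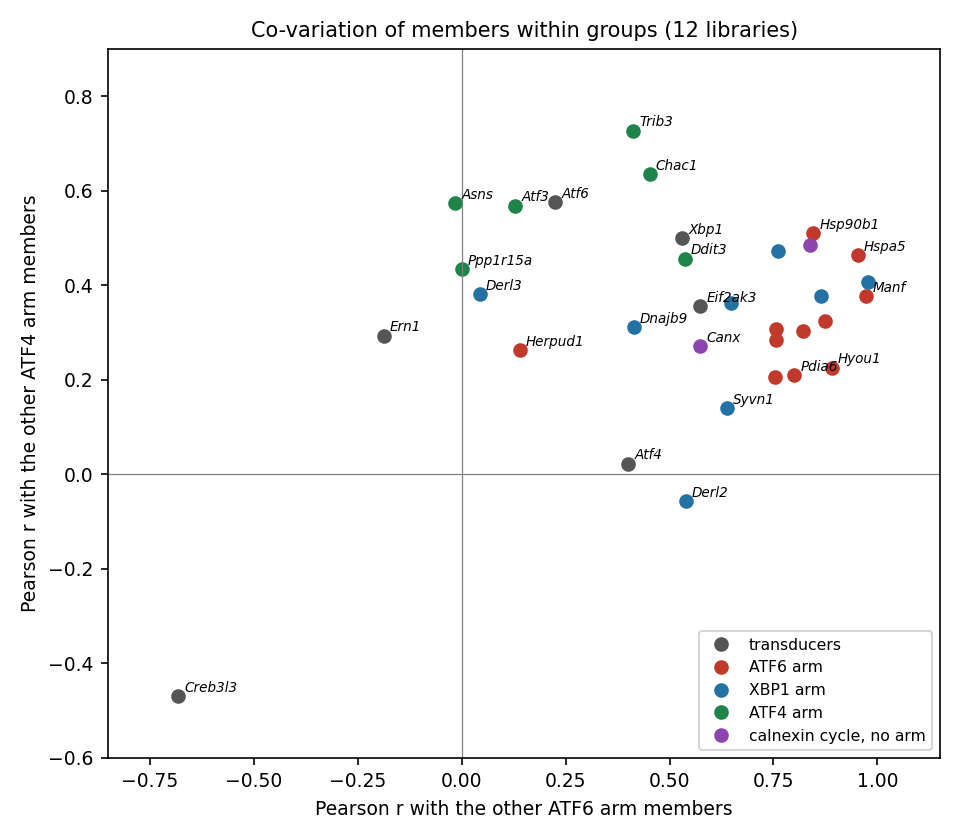
Pearson r of each member with the other ATF6 arm genes (horizontal) and the other ATF4 arm genes (vertical) over 12 libraries after subtracting group means, coloured by role, with some names left out where points crowd. ATF6 arm genes gather at the right edge apart from Herpud1 at 0.14, ATF4 arm genes lie higher, and Creb3l3 sits alone at -0.68.

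Members with and without the ERSE letters can be set side by side. The 9 members with an ERSE had a median log2 fold change of 0.51 for the transgene on chow, and the 20 members with a promoter entry and no ERSE had 0.41. The latter mix roles, as they hold the ATF4 arm (median 0.91) and transducers (0.21 over all 6). The 2 medians therefore do not isolate the ERSE. Outside the members, 26 genes carried an ERSE and 7 of them were tested. Their median r with the ATF6 arm was 0.33, with 2 above the 90th percentile of all genes (0.53): Alg12 (0.80), a mannosyltransferase of N-glycan assembly, and Acnat2 (0.71). Both were named after their values were seen.

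The rest of the pathway was read through lists chosen by function. None of 20 tested genes of ER folding and oxidation, 19 of ER-associated degradation, 25 of translocation, glycosylation and traffic, or 14 further sensors and regulators was called by limma in any comparison. In the traffic list, 23 of 25 genes stood higher with the transgene on chow (median 0.21) and 23 of 25 lower with Western diet in DKO/hA1 mice (-0.20), while the folding list split 12 to 8 on chow (0.08). At an unadjusted p of 0.05 the traffic list had 4 higher for the transgene on chow (4.04% of all genes) and 6 lower for diet in DKO/hA1 (5.3%). Over all genes tested, 51.5% stood higher in the former comparison and 50.4% in the latter. Sec23b, a coat protein of vesicles leaving the ER, had a log2 fold change of -0.37 ± 0.10 with diet averaged over genotypes (limma adjusted p = 0.071). Hspa13, an ATPase of the ER membrane, had -0.43 ± 0.14 (limma adjusted p = 0.11), and Wfs1, an ER calcium regulator, had -0.40 ± 0.14. Among the highest of these lists were Qsox1 (0.55), a thiol oxidase, Tmx1 (0.26), Spcs1 (0.24) and Creb3l1 (0.20), and among the lowest Rnf5 (-0.35), Ero1lb (-0.33) and Spcs3 (-0.29).

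In the list of further ATF4 and integrated stress genes (25 listed, 21 tested), Nupr1 rose with the transgene and Cth fell with diet. Nupr1, a small stress-induced chromatin protein, gave 0.347 to 1.72 FPKM in the 7 DKO libraries, 11.5 and 22.6 in transgenic mice on chow and 3.45, 8.60 and 20.4 in those on Western diet. Every transgenic value exceeded every DKO value (2.72 ± 0.36 averaged over diets, limma adjusted p = 0.020, called in 12 of 23 settings). Cth, cystathionine gamma-lyase, gave 178 to 275 FPKM on chow and 103 to 152 on Western diet over both genotypes. The diets did not overlap (-0.81 ± 0.15 averaged over genotypes, limma adjusted p = 0.014, called in 22 of 23 settings). On chow, 10 of the 21 genes lay higher without overlap (11.4% of all genes) and 1 lower (10.5%), and the median was 0.24.

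Of 7 genes linked to CREB3L3, 1 was called. Hamp, which encodes the iron hormone hepcidin, gave 1297 to 2251 FPKM in DKO chow, 3253 and 3099 in transgenic chow livers, 696 to 2450 in DKO Western diet and 421 to 1009 in DKO/hA1 Western diet. Hamp fell with diet averaged over genotypes (-1.34 ± 0.32, limma adjusted p = 0.044, called in 9 of 23 settings). By genotype its diet change was -2.14 ± 0.49 in DKO/hA1 and -0.54 ± 0.41 in DKO mice. Fgf21, a hormone under ATF4 and CREB3L3, gave 0.291 to 1.78 FPKM in DKO and 3.04 and 6.84 in DKO/hA1 chow (1.72 ± 0.40, limma adjusted p = 0.28). In DKO/hA1 chow, where Creb3l3 was lowest, Hamp and Fgf21 were both at their highest. In DKO/hA1 Western diet replicate 3, also low in Creb3l3 (71.4 FPKM), Hamp was at 875 and Fgf21 at 2.38 FPKM. The remaining genes of this list are not described here.

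Time of day is visible in liver mRNA through the clock genes, and the labels used here give no hour of collection. A clock index (mean log2 level of the positive limb minus that of the output limb) stood at 0.13 and 0.85 in the transgenic chow libraries, and at -2.39, -2.71 and -0.84 in the transgenic Western diet ones. In DKO chow it was -3.05, -2.93, 1.06 and 0.53, where the mean deviation of the 33 members was 0.17, -0.08, -0.05 and -0.04. That deviation was 0.36 and 0.61 in transgenic chow and 0.04, -0.10 and 0.61 in transgenic Western diet libraries. DKO Western diet had an index of -1.41, -1.84 and -0.425 and deviations of 0.055, 0.16 and 0.25. Within both transgenic groups the deviations kept the order of the index, and in DKO chow they did not. In DKO Western diet both peaked in replicate 3. The part of collection hour in the member values was not tested. With the index as a covariate the members' median for the transgene on chow was 0.36 and that for diet in DKO/hA1 was -0.23, in the same directions as without it. In DKO/hA1 mice the index did not overlap between the diets, so index and diet cannot be told apart there. With the covariate, Nupr1 (transgene averaged over diets, limma adjusted p = 0.074) and Hamp (diet averaged over genotypes, 0.118) were not called. Cth still was (diet averaged over genotypes, limma adjusted p = 0.043).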

How the data were processed

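Liver RNA-seq was deposited for 12 libraries as 1 table of FPKM per gene, made by the authors with TopHat 1.3.2, Bowtie 0.12.8, SAMtools 0.1.19 and Cuffdiff on mm10, per the submitters' processing notes. Samples with an RNA integrity number below 7 were discarded, per the labels' protocols. FPKM keeps no read depth, so the precision rests on the spread between libraries. Of 23284 genes, 785 small RNA genes were left out. So were 21 genes at 0 throughout 1 group while at 1 FPKM or more in every library of another. The 11546 of the rest with at least 1 FPKM in at least 2 libraries were tested. Values were scaled by trimmed means (factors 0.952 to 1.045), and log2(FPKM + 1) was fitted with limma 3.58.1 in R 4.3.3 (4 groups, trended and robust variance, Benjamini-Hochberg adjustment over all genes tested, threshold 0.05). Non-overlap was read after scaling. Values and sequences were tabulated and drawn with Python 3.11.15, pandas 2.3.3 and matplotlib 3.10.9. The fit was tested on simulated data with noise independent between genes, and only for diet averaged over genotypes. Alternatives covered scaling, the added constant, filters, variance, a replicate block, a clock covariate and each library left out. All members are named. Of the other lists, genes past the threshold and those with the highest and lowest diet effects were eligible to be named. Fgf21 was named outside this rule. The members and lists were chosen with earlier results of these data known. Replicate numbers did not pair the libraries. The other numbers in the sample descriptions, which some libraries share, were not checked.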

Additional observations from a re-analysis of the deposited data

Results flagged for a closer look

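Derl3, a membrane protein of ER-associated degradation, stood out in DKO chow replicate 3, at 7.516 FPKM against 0.992 to 2.087 FPKM in the other 3 libraries of that group. The gap took 0.832 of the group's range, which is past Dixon's critical value at the 95% level. It was the 1 such value among 33 members tested in that group, where chance gives about 1 in 20. Plasma and B cell markers without Sdc1 summed to 4.72 FPKM in the same library and to 5.22 to 26.5 FPKM in the other 3. Among them Igj was lowest there (1.82 FPKM against 3.03 to 19.3). Mzb1, also a plasma cell gene, lay within the range of the others (0.94 FPKM against 0.411 to 1.68). The part of such cells in the Derl3 value was not tested.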

How the results depend on the processing

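Each count of called members and each median over the members was recomputed under 22 alternatives. No member was called in any of them, except for the transgene averaged over diets: there Atf3 alone was called with totals made equal (1 member) and without DKO/hA1 Western diet replicate 1, so that leaving out 1 library gave 0 to 1 members. The median for diet in DKO/hA1 ranged from -0.552 (without DKO/hA1 Western diet replicate 3) to -0.11 (without replicate 2) when 1 library was left out. It was -0.551 without the 2 libraries highest in acute phase genes, an alternative chosen after seeing the data. The interaction median ranged from -0.697 to -0.263 in the same way, and that for the transgene averaged over diets from 0.043 to 0.233. The cause was not tested. Making totals equal moved the median of all genes to -0.186 (diet in DKO), -0.137 (diet averaged), 0.164 (transgene on Western diet), 0.117 (transgene averaged) and 0.111 (interaction). Calls over all genes ran from 7 to 70 for diet in DKO, 4 to 176 for diet in DKO/hA1, 2 to 35 for the transgene on chow, 0 to 2 on Western diet, 1 to 8 for the interaction, 32 to 531 for diet averaged and 2 to 21 for the transgene averaged.

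With a replicate block, 0 members were called in each comparison, and the median was 0.443 for the transgene on chow and -0.365 for diet in DKO/hA1. Calls over all genes were then 316 against 448 for diet averaged, 81 against 137 for diet in DKO/hA1 and 6 against 10 for the transgene averaged. The numbers did not pair the libraries: 4 of 15 same-numbered pairs had a correlation of deviations over 0.1, and 4 of 12 libraries correlated best with their own number.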
